A study of Arabidopsis thaliana with 6 samples.

Results

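The UDP-glycosyltransferases (UGTs) of Arabidopsis thaliana were followed in leaf messenger RNA of the pub2pub4 mutant and of wild type. Members were chosen by symbol: a row of the deposited expected-count table belonged to the family when the part of its name after the AGI code was UGT, a group number, a letter and a gene number. Of 33602 rows, 107 carried such a symbol, 8 of these were left out by AGI code, and 99 members remained. They fell into 20 UGT groups, of which group 76 was the largest with 18 members and 5 groups held 1 member each. No measured value enters that rule, but the family was picked with fold changes of the same contrast already known. The fold changes, adjusted p-values and counts of calls below are therefore a description of the family, and nothing is supported with them.

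Leaves of plants 25 days old were sampled, with 3 libraries of pub2pub4 mock and 3 of wild type mock. pub2pub4 carries mutations in both PUB2 and PUB4, which encode U-box E3 ubiquitin ligases. The labels and notes name neither the alleles nor what mock stood for. Whether libraries of a group came from separate plants is not stated, so the p-values measure only the spread between these libraries, and that spread may be technical.

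UGTs move a sugar, in most cases glucose, from a UDP-sugar onto a small acceptor. Their acceptors include plant hormones, hydroxycinnamates, flavonoids, sterols and foreign compounds, and the added sugar usually makes the acceptor more soluble, less active or ready for storage in the vacuole. Near the carboxyl end most plant UGTs carry the PSPG box (plant secondary product glycosyltransferase box), a conserved stretch that holds the UDP-sugar. In a UGT symbol the number names the group, the letter the subgroup and the last number the gene.

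Library totals were 20572341 to 20732799 expected counts in pub2pub4 and 20506882 to 20595904 in wild type. PUB2 had 0.217, 0.296 and 0.323 TPM (a level per gene length, scaled to a common total in each library) in pub2pub4, against 5.25, 5.67 and 4.15 TPM in wild type. PUB4 had 1.1, 1.53 and 1.71 TPM in pub2pub4, against 9.3, 10.6 and 8.59 TPM in wild type. Both genes were far lower in every pub2pub4 library than in any wild type library. Mesophyll markers summed to 18648 to 22349 TPM in pub2pub4 and 20450 to 21958 TPM in wild type, and root markers summed to at most 0.222 TPM in any library, with RHD6 at 0 in all of them. The mesophyll sum is almost all RBCS1A, with a log2 fold change of 0.05, while that of CAB3 was -0.44 and that of LHCB2.1 -0.45. LHCB2.1 had 511, 547 and 787 TPM in pub2pub4, against 836, 827 and 860 TPM in wild type, and did not pass the test (edgeR adjusted p = 0.2). The part of these markers in the values of the UGT members was not tested.

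Levels in leaf ranged widely over the family. Of the 99 members, 61 had a mean above 1 TPM over the 6 libraries, 33 of them above 10 TPM, and 38 had a mean below 1 TPM. The 10 highest members held 51.3% of the family's summed TPM. UGT84B1, UGT84B2, UGT79B10, UGT79B11, UGT83A1, UGT71B8 and UGT76C3 had no count in any library. A filter on low counts kept 67 members for testing, and the other 32 had at most 21 counts in any library, a value reached by UGT73D1 in wild type 2.

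Summed over all 99 members, the family had 1619, 1369 and 1229 TPM in pub2pub4, against 1175, 1163 and 1125 TPM in wild type. The groups did not overlap, and pub2pub4 1 was the highest library. The mean was 1406 ± 198 TPM in pub2pub4 and 1154 ± 26.5 TPM in wild type (SD, n = 3 each), a ratio of 1.22. Without pub2pub4 1 the ratio was 1.13.

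Among the 67 tested members, 9 rose in pub2pub4, none fell and 58 did not pass the test (edgeR quasi-likelihood test, Benjamini-Hochberg adjustment over all 19019 tested genes, adjusted p under 0.05). At an unadjusted p under 0.05 there were 18 members with a positive and 5 with a negative fold change, and DESeq2 called 11 members higher and 3 lower. Over all tested genes the shares were 10.3% and 9.41% at that unadjusted p, and 3.95% higher and 3.72% lower by DESeq2. By edgeR's adjusted p, 4.46% of all 19019 tested genes were called in either direction, 2.49% higher and 1.97% lower. The 9 members are 13.4% of those tested; since the family was picked on this contrast, nothing is read from the gap. The log2 fold change was positive in 48 members and negative in 19, which is 71.6% positive against 51.5% of all tested genes. Its median was 0.19 over the tested members and 0.01 over all tested genes. Values of the groups did not overlap in 18 members higher in pub2pub4 and in 6 lower, against 13.4% and 12.7% of all tested genes.

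How many members were called depended on which libraries were kept, as it did over the whole table. Without pub2pub4 2, wild type 1 or wild type 2, the members called higher numbered 2, 2 and 1, while the calls over all genes fell to 91, 132 and 86. Without pub2pub4 1 there were 6 members called higher, without wild type 3 there were 6, and without pub2pub4 3 there were 12. The median log2 fold change of the tested members stayed between 0.07, without pub2pub4 1, and 0.23, without wild type 2. The members just inside and just outside the threshold were UGT89B1, with an adjusted p of 0.0442, and UGT71B6, with an adjusted p of 0.0525.

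**Figure D1:**
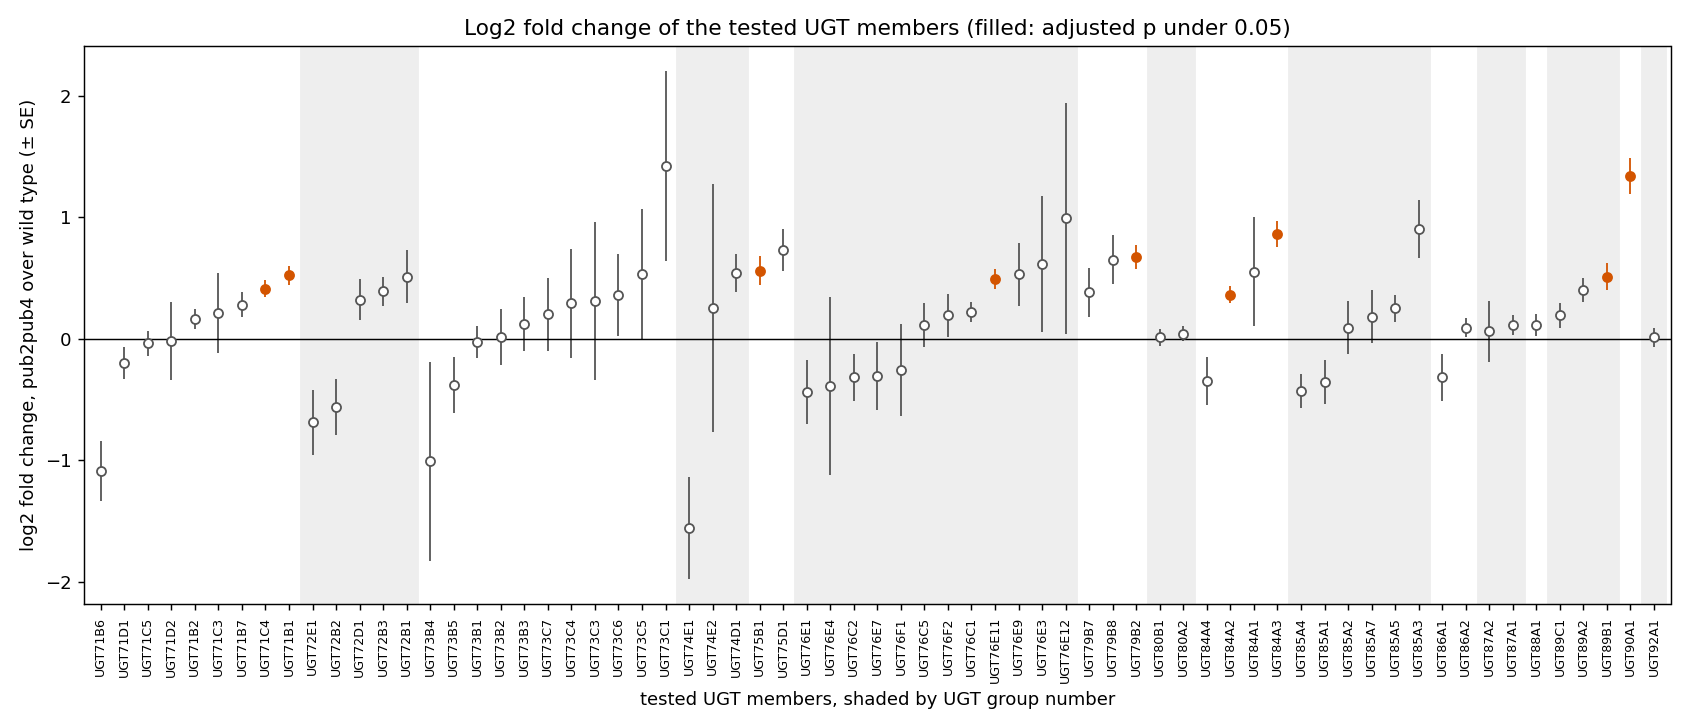
Log2 fold change of pub2pub4 over wild type (vertical axis, bars ± SE from edgeR) for the 67 tested UGT members, ordered and shaded by group number; filled points have an adjusted p under 0.05. All 9 filled points lie above 0, between 0.36 and 1.34, and 48 of the 67 points are above 0.

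The largest change among the called members was that of UGT90A1 (AT2G16890, chromosome 2, 7316789 to 7319243, plus strand, 3 coding exons; positions here and below are of the RefSeq TAIR10.1 annotation). UGT90A1 had 8.6, 8.94 and 7.39 TPM in pub2pub4, against 3.64, 2.66 and 3.55 TPM in wild type. Every pub2pub4 library was above every wild type library. On the log2 scale the fold change was 1.34 ± 0.15 (SE; edgeR adjusted p = 0.0078), and UGT90A1 was the only member called in all 6 fits that left out 1 library. Its group partner UGT90A2 had 1 or 2 counts in every library and was not tested.

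Group 84 held a pair of called members. Its UGT84A enzymes join glucose to hydroxycinnamic acids such as sinapate by an ester bond, and UGT84A2, also known as BRT1, is a sinapate glucosyltransferase of the leaf. UGT84A3 (AT4G15490, chromosome 4, 8852656 to 8854706, minus strand) had 93.1, 85.6 and 68.4 TPM in pub2pub4, against 49.9, 43.1 and 43.4 TPM in wild type. UGT84A3 had a log2 fold change of 0.86 ± 0.11 (SE; edgeR adjusted p = 0.0123). Its adjusted p was 0.0569 without pub2pub4 2 and 0.0672 without wild type 2. UGT84A2 (AT3G21560, chromosome 3, 7595680 to 7597607, plus strand) had 22.7, 22.3 and 21.5 TPM in pub2pub4, against 16.6, 17 and 18.2 TPM in wild type. The groups were apart in both genes, with a smaller gap in UGT84A2, whose log2 fold change was 0.36 ± 0.07 (SE; edgeR adjusted p = 0.032). The adjusted p of UGT84A2 was 0.0749 to 0.143 without pub2pub4 1, pub2pub4 2, wild type 1 or wild type 2.

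Neither array neighbour of UGT84A3 passed the test, and whether their changes differ from its own was not tested. UGT84A4 had 2.68, 3.56 and 3.97 TPM in pub2pub4, against 4.88, 3.55 and 4.7 TPM in wild type, with a log2 fold change of -0.35 ± 0.20 (SE; edgeR adjusted p = 0.381). UGT84A1 had 0.378 to 0.87 TPM in pub2pub4 and 0.229 to 0.568 TPM in wild type, with a log2 fold change of 0.55 ± 0.45 (SE; edgeR adjusted p = 0.555). The groups overlapped in both genes. The coding sequences of UGT84A3 and UGT84A4 were 79.7% identical and those of UGT84A2 and UGT84A3 69.0%. The coding strand of their PSPG box, 132 bases for 44 residues, is given below because it shows how far the 4 genes differ in their most conserved part; capitals mark the 41 positions at which the 4 are not all alike. The stretches lie at chr4:8849279-8849410 (UGT84A1, minus strand), chr3:7596928-7597059 (UGT84A2, plus strand), chr4:8853146-8853277 (UGT84A3, minus strand) and chr4:8857377-8857508 (UGT84A4, minus strand), within the single coding exon of each gene.
UGT84A1: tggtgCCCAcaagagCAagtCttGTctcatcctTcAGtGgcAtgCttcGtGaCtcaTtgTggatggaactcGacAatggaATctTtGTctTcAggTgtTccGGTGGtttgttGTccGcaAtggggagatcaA
UGT84A2: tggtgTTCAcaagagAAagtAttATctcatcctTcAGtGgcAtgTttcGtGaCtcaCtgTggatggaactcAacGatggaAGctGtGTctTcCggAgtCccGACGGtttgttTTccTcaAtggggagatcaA
UGT84A3: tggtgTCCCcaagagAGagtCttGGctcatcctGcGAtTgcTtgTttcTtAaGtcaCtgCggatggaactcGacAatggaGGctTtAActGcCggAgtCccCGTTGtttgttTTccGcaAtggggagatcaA
UGT84A4: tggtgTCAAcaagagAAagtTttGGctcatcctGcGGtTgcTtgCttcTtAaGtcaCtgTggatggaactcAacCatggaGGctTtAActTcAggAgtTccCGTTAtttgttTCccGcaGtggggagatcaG

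UGT79B2 and its neighbour UGT79B3 act on anthocyanins and are known as genes induced by cold. UGT79B2 (AT4G27560, chromosome 4, 13759800 to 13761603, minus strand) had 53.4, 44.1 and 53.9 TPM in pub2pub4, against 28.9, 33.7 and 33.1 TPM in wild type. The groups did not overlap, and the log2 fold change was 0.67 ± 0.10 (SE; edgeR adjusted p = 0.015). The adjusted p of UGT79B2 was 0.0566 without wild type 1 and 0.0663 without wild type 2. UGT79B3, next to it, had 0 to 3 counts in each library and was not tested. The coding sequences of these neighbours were 95.4% identical, with an identical run of 131 bases, so reads within such runs could be assigned to either gene. The value of UGT79B2 is uncertain to that extent. Their PSPG boxes show how alike they are, with capitals at the 3 positions that differ (UGT79B2 at chr4:13760381-13760512 and UGT79B3 at chr4:13763918-13764049, both minus strand, coding strand given).
UGT79B2: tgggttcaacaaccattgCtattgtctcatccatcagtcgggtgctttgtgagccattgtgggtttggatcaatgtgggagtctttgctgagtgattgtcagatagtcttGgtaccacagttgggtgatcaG
UGT79B3: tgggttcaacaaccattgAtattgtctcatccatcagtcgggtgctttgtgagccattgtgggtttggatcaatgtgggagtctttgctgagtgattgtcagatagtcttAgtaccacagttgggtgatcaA

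UGT75B1 had the highest mean level of all members. Its protein was found with the callose synthase complex of the cell plate, and it glucosylates p-aminobenzoate and abscisic acid. UGT75B1 (AT1G05560, chromosome 1, 1645300 to 1647435, minus strand) had 171, 130 and 119 TPM in pub2pub4, against 91.9, 94.2 and 99.7 TPM in wild type. pub2pub4 1 stood well above the other libraries, and all pub2pub4 libraries were above wild type. The log2 fold change was 0.56 ± 0.12 (SE; edgeR adjusted p = 0.0441), and without pub2pub4 1 it was 0.41 with an adjusted p of 0.0377. The adjusted p of UGT75B1 was 0.0896 to 0.173 without pub2pub4 2 or any 1 of the wild type libraries, and 0.0605 on library totals alone. A long noncoding RNA on the opposite strand, AT1G05562, overlaps UGT75B1 over 2136 bases and had 8.214 CPM (counts scaled to library size) in wild type, beside 117.436 CPM for UGT75B1. No source names a strand setting for the counting, so reads of the pair cannot be told apart.

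UGT71B1 and UGT71C4 were the called members of group 71. UGT71B1 (AT3G21750, chromosome 3, 7664345 to 7666305, plus strand) had 88.5, 79.3 and 71.4 TPM in pub2pub4, against 57.8, 52.4 and 56.6 TPM in wild type. The log2 fold change of UGT71B1 was 0.52 ± 0.08 (SE; edgeR adjusted p = 0.0166), with an adjusted p of 0.0625 to 0.0868 without pub2pub4 2, wild type 1 or wild type 2. UGT71C4 (AT1G07250, chromosome 1, 2225759 to 2227608, plus strand) had 40.9, 44.6 and 41.2 TPM in pub2pub4, against 33.8, 30.6 and 31.5 TPM in wild type. Neither gene's groups overlapped, with a wider spread among the pub2pub4 libraries in UGT71B1. For UGT71C4 the log2 fold change was 0.41 ± 0.07 (SE; edgeR adjusted p = 0.025), with an adjusted p of 0.058 to 0.123 without pub2pub4 2 or any 1 of the wild type libraries.

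UGT76E11 and UGT89B1 completed the called members. UGT76E11 (AT3G46670, chromosome 3, 17192589 to 17194397, minus strand, 2 coding exons) had 34.5, 29.6 and 33.1 TPM in pub2pub4, against 24.4, 21 and 24.2 TPM in wild type. UGT76E11 had a log2 fold change of 0.49 ± 0.08 (SE; edgeR adjusted p = 0.0224), with an adjusted p of 0.0537 to 0.098 without pub2pub4 1, pub2pub4 2, wild type 1 or wild type 2. UGT89B1 (AT1G73880, chromosome 1, 27784928 to 27786804, plus strand) had 6.73, 6.05 and 5.55 TPM in pub2pub4, against 4.42, 4.3 and 4.15 TPM in wild type. Both genes were higher in every pub2pub4 library than in any wild type library. UGT89B1 had a log2 fold change of 0.51 ± 0.11 (SE; edgeR adjusted p = 0.0442). UGT89B1 was called in 1 of the 6 fits that left out a library, that without pub2pub4 3, with an adjusted p of 0.106 to 0.159 in the others, and its DESeq2 adjusted p was 0.0593. AT3G46668, a noncoding RNA on the strand opposite to UGT76E11, overlaps it over 1809 bases and had 1.95 CPM in wild type, beside 29.995 CPM for UGT76E11.

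**Figure D2:**
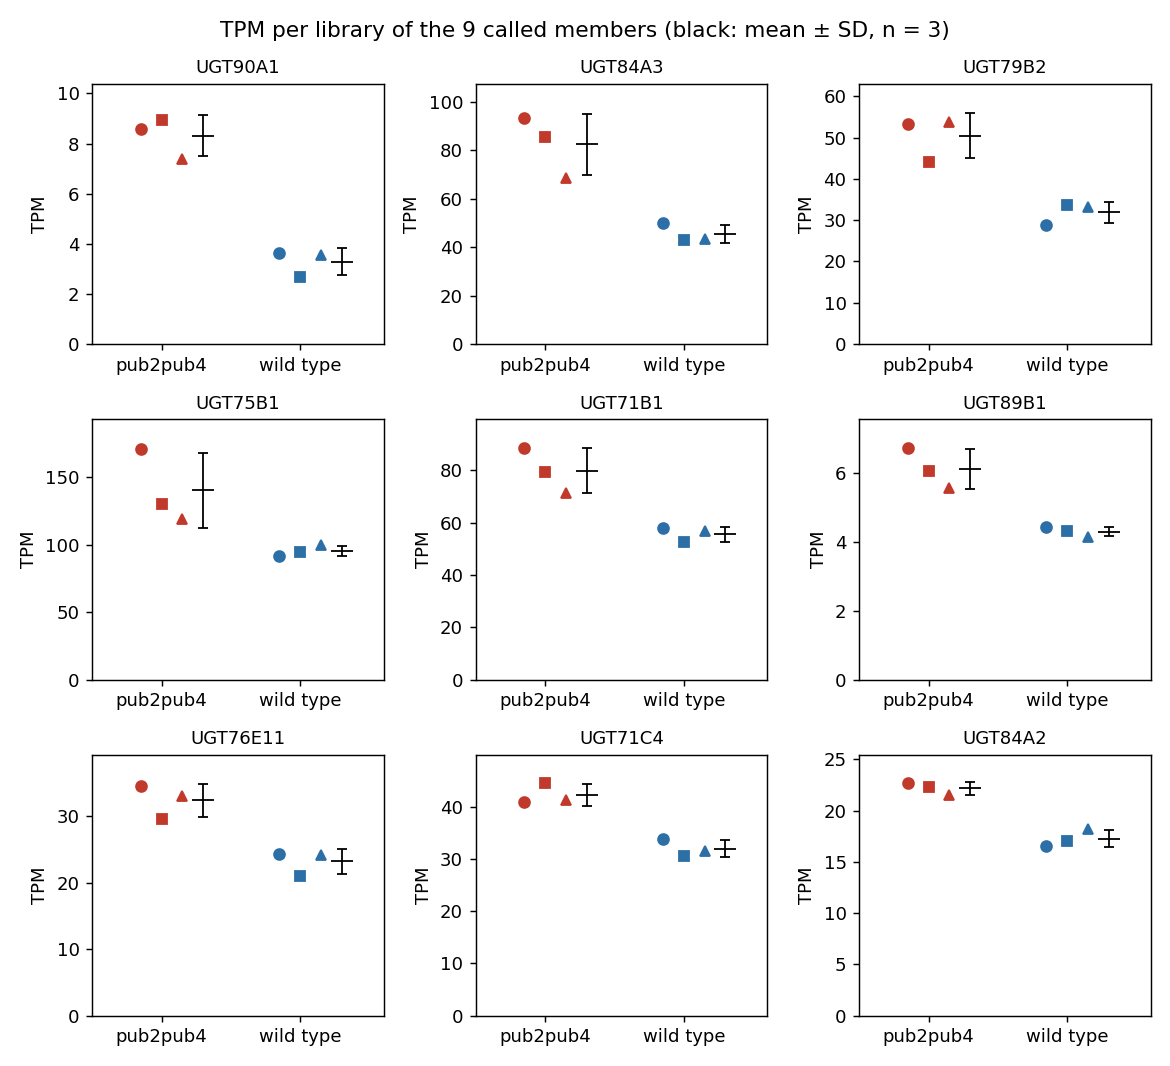
TPM per library of the 9 called members (vertical axes from 0), with pub2pub4 left of wild type; circles, squares and triangles are libraries 1, 2 and 3, and black bars are the mean ± SD of 3 libraries. In every panel the lowest pub2pub4 library is above the highest wild type library; the gap is widest in relative terms for UGT90A1, at 7.39 against 3.64 TPM.

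Several members with high leaf levels did not pass the test. UGT72B1, which conjugates monolignols and chlorinated xenobiotics, had 161, 119 and 82.8 TPM in pub2pub4, against 81.2, 84.8 and 88.6 TPM in wild type. Its groups overlapped, and the pub2pub4 libraries spread over 1.88-fold while wild type spread over 1.1-fold. The log2 fold change of UGT72B1 was 0.51 ± 0.22 (SE; edgeR adjusted p = 0.28), and without pub2pub4 3 it was 0.71 with an adjusted p of 0.0151. UGT71B2 had 68.9, 70.6 and 76.2 TPM in pub2pub4, against 70.4, 63.3 and 59.7 TPM in wild type (log2 fold change 0.16, edgeR adjusted p = 0.315). AT3G21755, a long noncoding RNA on the opposite strand, overlaps UGT71B2 over 1698 bases. It had 22.613 CPM in wild type, beside 81.722 CPM for UGT71B2, so the value of UGT71B2 is uncertain. UGT89C1, the flavonol 7-O-rhamnosyltransferase, had 60.4, 62.4 and 66.5 TPM in pub2pub4, against 49.1, 61.4 and 55.8 TPM in wild type (log2 fold change 0.19, edgeR adjusted p = 0.321). UGT88A1 averaged 61.4 ± 7.19 TPM in pub2pub4 and 56.9 ± 3.53 TPM in wild type, and UGT73B1 39.6 ± 7.91 TPM in pub2pub4 and 40.3 ± 4.2 TPM in wild type (SD, n = 3 each). In all 4 genes the libraries of both genotypes overlapped, and none passed the test.

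Summed by group number, 16 of the 20 groups held a tested member, and in 7 of these the summed TPM of pub2pub4 and wild type did not overlap, with pub2pub4 higher: groups 71, 75, 76, 79, 84, 89 and 90. These are the 7 groups that hold a called member, and the sums contain that member. No group was lower without overlap. Taken singly, 13.4% of all tested genes were higher and 12.7% lower without overlap. For sums of genes no such share was computed, so nothing is read from the count of 7 groups. Group 84 summed to 119, 112 and 94.7 TPM in pub2pub4, against 71.9, 63.8 and 66.8 TPM in wild type, a ratio of 1.61. Without UGT84A3 that ratio was 1.18, so most of the gain in the sum was the level of that gene. Group 79 summed to 67, 60.2 and 75.2 TPM in pub2pub4, against 40.7, 47.2 and 46 TPM in wild type, a ratio of 1.51 with UGT79B2 and 1.33 without it. Group 75 summed to 201, 151 and 141 TPM in pub2pub4, against 110, 108 and 112 TPM in wild type, a ratio of 1.49.

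Group 71, the largest share of the family at 18.5% of its wild type TPM, summed to 267, 259 and 250 TPM in pub2pub4, against 225, 211 and 203 TPM in wild type. Group 72 had a ratio of 1.21 with overlapping libraries, and of 0.77 once UGT72B1 was left out, so the direction of its sum rested on that gene. Group 74 likewise had a ratio of 1.24 with overlapping libraries, and of 0.84 without UGT74D1. In group 72, 3 of the 5 tested members had a positive log2 fold change, with a median of 0.32. Its member UGT72E1 averaged 16.6 TPM in pub2pub4 and 26.8 TPM in wild type. UGT72B3, the member of group 72 with the smallest p, had 8.46, 7.68 and 6.45 TPM in pub2pub4, against 5.77, 6.02 and 5.53 TPM in wild type (log2 fold change 0.39, edgeR adjusted p = 0.129). Groups 80 and 85 had ratios of 1.02 and 1.01. UGT80A2 and UGT80B1, which glucosylate sterols, averaged 17.7 ± 0.255 and 16 ± 1.13 TPM in pub2pub4, against 17.2 ± 0.314 and 15.9 ± 0.285 TPM in wild type (SD, n = 3 each). UGT92A1, the single member of group 92, averaged 27.5 ± 2.8 TPM in pub2pub4 and 27.4 ± 1.34 TPM in wild type (SD, n = 3 each). In groups 86, 87 and 88 the sums overlapped, at ratios of 0.96 and 1.06 for groups 86 and 87. UGT86A1 had the smallest p of group 86 at a log2 fold change of -0.32 (edgeR adjusted p = 0.409), and UGT87A1 that of group 87 at 0.11 (edgeR adjusted p = 0.495).

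**Figure D3:**
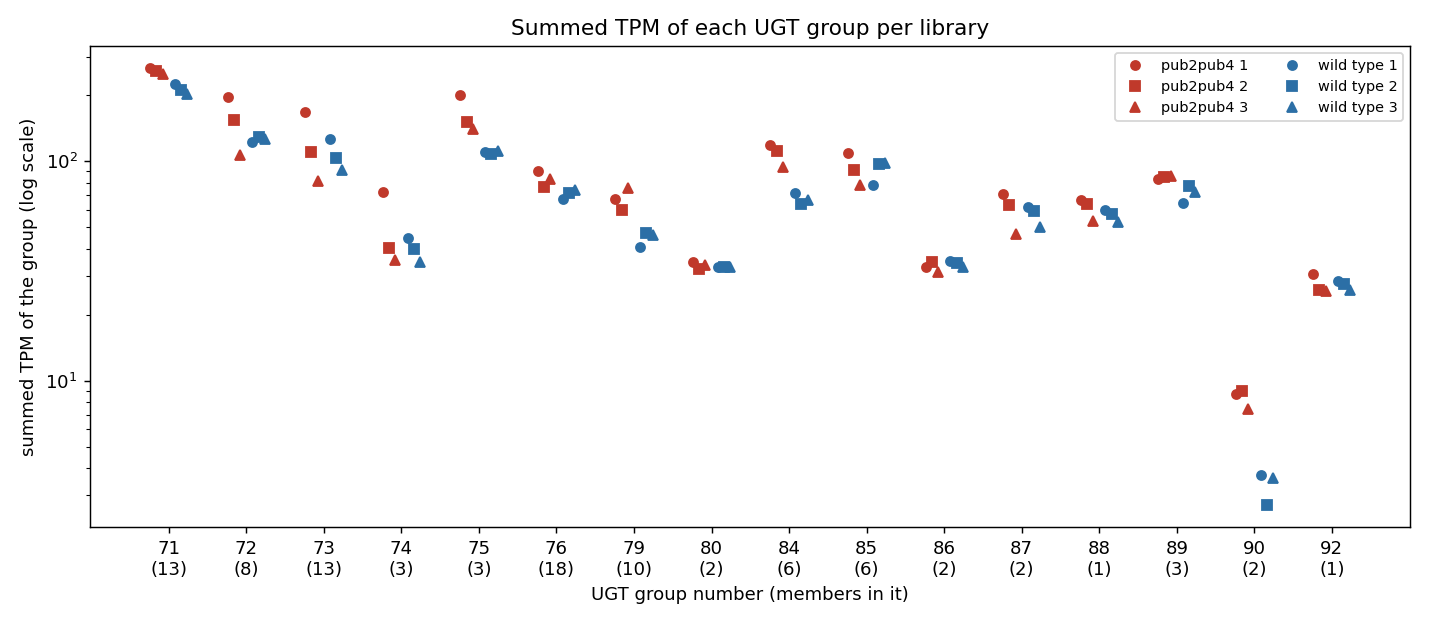
Summed TPM (vertical axis, log scale) of the 16 UGT groups with a tested member, per library; pub2pub4 (red) stands left of wild type (blue) and marker shapes are libraries 1, 2 and 3. Groups 84 and 90 show the clearest gaps, while the libraries of both genotypes overlap in groups 80, 86 and 92. Library pub2pub4 1 is the highest in every group shown except 79, 86, 89 and 90.

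By the hormone that members are known to conjugate, the abscisic acid set held 1 called gene of 4 tested, UGT75B1. Of all tested genes 2.49% were called higher, and nothing is read from a count in so small a set. UGT71B6, a glucosyltransferase of abscisic acid, had 0.963, 1.07 and 0.653 TPM in pub2pub4, against 2.09, 1.8 and 1.89 TPM in wild type. All pub2pub4 libraries were below wild type, with a log2 fold change of -1.09 ± 0.25 (SE; edgeR adjusted p = 0.0525, DESeq2 adjusted p = 0.0464). UGT71C5 averaged 21.5 ± 1.22 TPM in pub2pub4 and 22.2 ± 2.32 TPM in wild type, and UGT71B7 33.4 ± 3.62 TPM in pub2pub4 and 27.5 ± 2.73 TPM in wild type (SD, n = 3 each). UGT71B8 had no count. The summed TPM of this set was 229, 187 and 171 in pub2pub4, against 145, 149 and 147 in wild type, and followed UGT75B1.

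Of the auxin enzymes, 3 of 4 were tested and none passed edgeR's test, while DESeq2 called UGT75D1 and UGT74D1 higher. Over all tested genes, edgeR called 2.49% higher and 1.97% lower, and DESeq2 3.95% higher and 3.72% lower. The set is too small for anything to be read from these counts. UGT75D1, which glucosylates the auxin precursor indole-3-butyric acid and other acids, had 29.7, 20.4 and 21.7 TPM in pub2pub4, against 17.6, 13.2 and 12.6 TPM in wild type. Its groups did not overlap, with a log2 fold change of 0.73 ± 0.17 (SE; edgeR adjusted p = 0.0646), and DESeq2 gave an adjusted p of 0.00173. A protein-coding gene on the opposite strand, AT4G15545, overlaps UGT75D1 over 210 bases and had 343.879 CPM in wild type, beside 18.772 CPM for UGT75D1. UGT74D1, which glucosylates indole-3-acetic acid and oxidised auxin, had 48.8, 33.5 and 30.7 TPM in pub2pub4, against 24.5, 26.4 and 26.9 TPM in wild type (log2 fold change 0.54, edgeR adjusted p = 0.116, DESeq2 adjusted p = 0.0235); its groups did not overlap, and without pub2pub4 3 its edgeR adjusted p was 0.0465. UGT74E2, another enzyme of indole-3-butyric acid, had 22.5, 4.62 and 1.97 TPM in pub2pub4, against 15, 5.56 and 3.68 TPM in wild type. In both genotypes library 1 was far above the others, and the log2 fold change of UGT74E2 was 0.25 ± 1.02 (SE; edgeR adjusted p = 0.929). Without pub2pub4 1 that fold change was -1.27. Its neighbour UGT74E1 had 0.918, 2.13 and 2.83 TPM in pub2pub4, against 5.27, 7.93 and 4.25 TPM in wild type, without overlap and with the lowest fold change of the tested members at -1.56 ± 0.42 on the log2 scale (SE; edgeR adjusted p = 0.0954, DESeq2 adjusted p = 0.00168). Auxin enzyme UGT84B1 had no count.

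The cytokinin enzymes gave no call among 3 tested. With 4.46% of all tested genes called by edgeR, a set of this size says nothing by having no call. UGT85A1, a zeatin O-glucosyltransferase, had 26.6, 20 and 17.4 TPM in pub2pub4, against 22.3, 28.2 and 31.4 TPM in wild type (log2 fold change -0.36, edgeR adjusted p = 0.335). UGT76C1 and UGT76C2 place glucose on a ring nitrogen of cytokinins. UGT76C1 averaged 16.4 ± 0.945 TPM in pub2pub4 and 14.1 ± 0.329 TPM in wild type, and UGT76C2 10.8 ± 2.72 TPM in pub2pub4 and 13.5 ± 1.21 TPM in wild type (SD, n = 3 each). The 3 genes differed in the sign of their change, and none passed the test. UGT85A3, the group 85 member with the smallest p, had 10.9, 7.86 and 8.59 TPM in pub2pub4, against 3.12, 5.55 and 5.97 TPM in wild type (log2 fold change 0.90, edgeR adjusted p = 0.0876, DESeq2 adjusted p = 0.00943).

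The brassinosteroid enzymes UGT73C5 (DOGT1, which also detoxifies the fungal toxin deoxynivalenol) and UGT73C6 gave no call, beside 4.46% of all tested genes called by edgeR. UGT73C5 had 55.9, 26.3 and 15.1 TPM in pub2pub4, against 31.4, 17.8 and 17.7 TPM in wild type. Library 1 was the highest of each genotype, the groups overlapped, and the log2 fold change of 0.53 ± 0.54 (SE; edgeR adjusted p = 0.656) was -0.09 without pub2pub4 1. UGT73C6 averaged 4.44 ± 1.62 TPM in pub2pub4 and 3.45 ± 1.18 TPM in wild type (SD, n = 3 each). The coding sequences of UGT73C5 and UGT73C6 were 91.0% identical, so part of their reads could be shared. AT2G36792, a long noncoding RNA on the opposite strand, overlaps UGT73C6 over 1694 bases. It had 6.72 CPM in wild type, beside 4.329 CPM for UGT73C6, so the value of UGT73C6 is uncertain.

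Among 6 tested phenylpropanoid enzymes, UGT84A2 and UGT84A3 rose and the others did not pass, while 2.49% of all tested genes were called higher. Nothing is read from that count, since the family was picked on this contrast. UGT72E1, which glucosylates coniferyl and sinapyl aldehydes, had 19.9, 19.9 and 10 TPM in pub2pub4, against 27, 29.6 and 24 TPM in wild type. Its groups did not overlap, with a log2 fold change of -0.69 ± 0.27 (SE; edgeR adjusted p = 0.229, DESeq2 adjusted p = 0.033). UGT72E2 and UGT72E3, enzymes of the monolignol glucosides, had at most 15 counts in a library and were not tested. In the flavonoid set UGT79B2 rose, UGT89C1 did not pass, and UGT79B3 and UGT79B6 were not tested.

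Enzymes linked to defence gave no call. As edgeR called 4.46% of all tested genes, nothing is read from the lack of a call in so few genes. UGT89A2, which conjugates dihydroxybenzoates, had 16.3, 16 and 13.5 TPM in pub2pub4, against 11.2, 11.1 and 12.4 TPM in wild type (log2 fold change 0.40, edgeR adjusted p = 0.0587). UGT71C3, which glucosylates methyl salicylate, averaged 1.51 ± 0.331 TPM in pub2pub4 and 1.31 ± 0.52 TPM in wild type (SD, n = 3 each), and UGT76D1 was not tested. UGT76E1, an enzyme of jasmonate conjugates, averaged 1.44 ± 0.3 TPM in pub2pub4 and 1.96 ± 0.465 TPM in wild type (SD, n = 3 each). The protein-coding gene AT5G59570, on the opposite strand, overlaps UGT76E1 over 1896 bases. AT5G59570 had 19.16 CPM in wild type, beside 2.233 CPM for UGT76E1, so the value of UGT76E1 is uncertain. The UGT73B genes, of which UGT73B3 and UGT73B5 are known for roles in redox status during the response to bacteria, summed to 89.1, 69.6 and 59.5 TPM in pub2pub4, against 83.8, 76.7 and 63.5 TPM in wild type. All 5 of them were tested, none passed, and the log2 fold changes ran between -1.01 for UGT73B4 and 0.12 for UGT73B3, with UGT73B2 at 0.01 and UGT73B5 at -0.38. UGT73B4 and UGT73B5 are annotated over a shared stretch of 1866 bases on the same strand, so their counts are uncertain. UGT87A2, which acts on flowering time, had 46.1, 40 and 23.4 TPM in pub2pub4, against 38.6, 36.5 and 29.7 TPM in wild type (log2 fold change 0.06, edgeR adjusted p = 0.926).

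Members often sit side by side. With at most 2 other coding genes allowed between neighbours, 66 members formed 22 arrays of up to 6 genes, and 6 of the 9 called members lay in arrays. No array held more than 1 called member. In the UGT71B array on chromosome 3 (7664345 to 7681797), UGT71B1 rose, UGT71B2 and UGT71B7 did not pass, UGT71B6 had a negative fold change and UGT71B8 no count. The UGT76E array on chromosome 3 (17189264 to 17212541) held UGT76E11 at 29.6 to 34.5 TPM in pub2pub4 and 21 to 24.4 TPM in wild type, while its neighbour UGT76E12 had 8.85, 3.96 and 0.731 TPM in pub2pub4, against 0.734, 2.52 and 3.51 TPM in wild type. UGT76E12 thus spread over 11.5-fold within pub2pub4 and 4.74-fold within wild type. Its coding sequence was 87.7% identical to that of UGT76E11. AT3G46658, a long noncoding RNA on the opposite strand, overlaps UGT76E12 over 1904 bases. That RNA had 3.894 CPM in wild type, beside 3.083 CPM for UGT76E12, so the values of UGT76E12 are uncertain. In the UGT73C array on chromosome 2 (15410376 to 15425129), all 5 tested genes had a positive fold change and none was called. UGT73C1, the group 73 member with the smallest p, had 9.9, 3.13 and 1.52 TPM in pub2pub4, against 2.6, 0.871 and 1.91 TPM in wild type (log2 fold change 1.42 ± 0.78, SE; edgeR adjusted p = 0.394). That array summed to 78.3, 39.7 and 20.6 TPM in pub2pub4, against 41.5, 25.4 and 26.6 TPM in wild type, so that pub2pub4 lay on both sides of wild type.

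**Figure D4:**
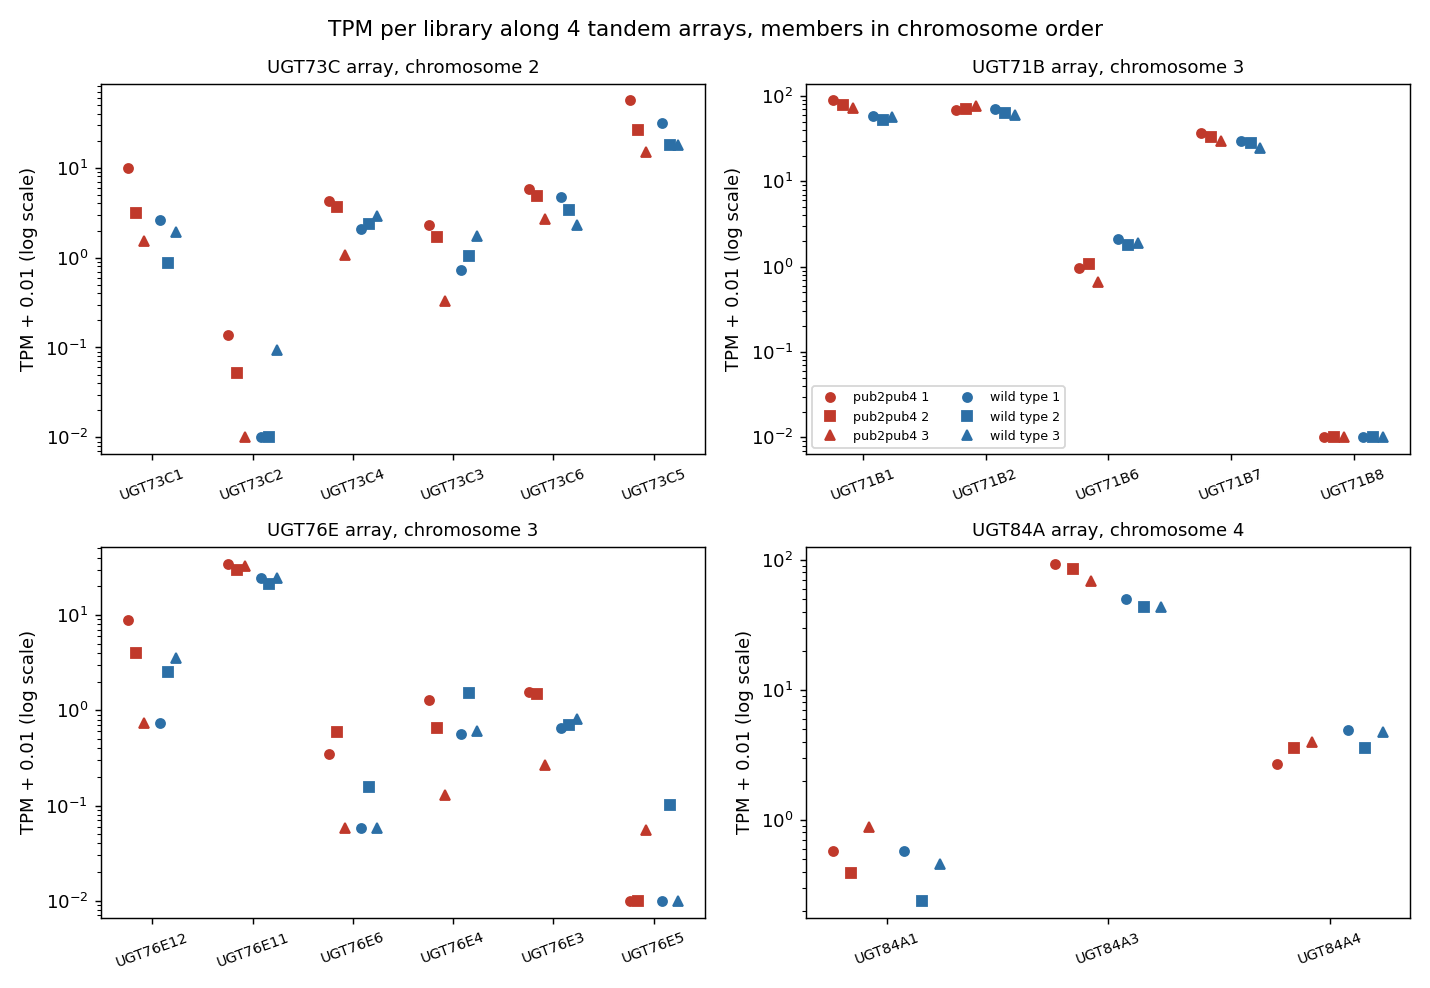
TPM per library, drawn as TPM + 0.01 on a log axis, along 4 tandem arrays with members in chromosome order; pub2pub4 (red) stands left of wild type (blue) and marker shapes are libraries 1, 2 and 3. Levels of neighbours differ by orders of magnitude, the UGT73C genes spread widely within pub2pub4, and UGT71B1, UGT76E11 and UGT84A3 are the called member of their array.

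Spread within pub2pub4 was wide in this family. The coefficient of variation of the tested members had a median of 18.9% in pub2pub4 and 11.1% in wild type, against 9.2% in pub2pub4 and 8.05% in wild type over all tested genes. Library pub2pub4 1 was the highest and pub2pub4 3 the lowest of the 3 in 29 of the 67 tested members, which is 43.3%, against 19.3% of all tested genes. More than 2-fold between the highest and lowest library was seen in 14 members within pub2pub4 and in 8 within wild type; over all tested genes the shares were 7.2% and 5.51%. What sets pub2pub4 1 apart in these genes was not tested.

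The 99 members encode proteins of 435 to 637 residues, with a median of 473, and 56 of them have a single coding exon. A PSPG box, searched as tryptophan, histidine, glycine and glutamine at residues 1, 19, 21 and 44 of the stretch, was found in 94 members and not in UGT89C1, UGT80A2, UGT80B1, UGT79B11 and UGT78D4. All 9 called members hold it. No looser pattern was searched, so a miss does not show that a member lacks the box. In 49 members the nearest other member was at least 80% identical over the coding sequence, and 26 members overlap another annotated gene. Reads of such genes may be split between the copies in a way the deposited counts do not show, and 15 members had values that were not whole.

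Upstream sequence was searched for 4 short motifs in a window of 300 bases, 250 before and 50 after the annotated start, on both strands. The core of the abscisic acid response element, ACGTG, was in 36.4% of the 99 members' windows, in 6 of the 9 of called members and in 26.7% of 27443 windows of all protein-coding genes. The W-box core TTGAC was in 56.6% of the members' windows, in 4 of the 9 and in 50.5% of all windows. The as-1 core TGACG was in 24.2%, in 3 of the 9 and in 23.1% of all windows. The G-box CACGTG, which contains ACGTG, was in 8.1%, in 1 of the 9 and in 7.7% of all windows, and the as-1 core and ACGTG share letters where a run of TGACGTG occurs. Within the 250 bases before the start, 5 of the 9 called members held ACGTG once. No share over all genes was computed for that shorter window, so nothing is read from this count. The upstream windows of UGT90A1, which had the largest fold change, and of UGT84A2, which had the smallest, are given with that match in capitals (read on either strand, so CACGT or ACGTG). They lie at chr2:7316539-7316788 and chr3:7595430-7595679, both plus strand, in TAIR10.1. A match describes the letters of the window and is no binding site.
UGT90A1: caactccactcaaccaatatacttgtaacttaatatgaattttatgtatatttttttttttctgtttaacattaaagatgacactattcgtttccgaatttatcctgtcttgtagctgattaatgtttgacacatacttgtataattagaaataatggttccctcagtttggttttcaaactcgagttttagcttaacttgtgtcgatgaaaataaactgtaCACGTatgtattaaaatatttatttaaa
UGT84A2: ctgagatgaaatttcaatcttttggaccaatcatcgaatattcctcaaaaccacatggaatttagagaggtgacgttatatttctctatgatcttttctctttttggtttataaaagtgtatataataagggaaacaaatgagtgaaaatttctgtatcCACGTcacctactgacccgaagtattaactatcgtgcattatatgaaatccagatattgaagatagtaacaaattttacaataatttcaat

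Enzymes that supply UDP-sugars were read from the same fit. All 17 listed genes were tested, 2 rose, none fell and 15 did not pass, with a median log2 fold change of 0.16 (edgeR). Over all tested genes 2.49% were called higher and 1.97% lower, and the median was 0.01. At an unadjusted p under 0.05 there were 7 higher and 1 lower, and DESeq2 called 3 higher and 1 lower, against the shares over all genes given above for each rule. The lower gene was UGD4, a UDP-glucose dehydrogenase, at 20.8, 20.2 and 24.1 TPM in pub2pub4 and 28.3, 26.4 and 27.6 TPM in wild type (edgeR adjusted p = 0.0683). UGP2, a UDP-glucose pyrophosphorylase, had 137, 148 and 120 TPM in pub2pub4, against 101, 92.3 and 90.7 TPM in wild type (log2 fold change 0.51, edgeR adjusted p = 0.022). SUS3, a sucrose synthase that releases UDP-glucose from sucrose, had 2.71, 2.49 and 1.67 TPM in pub2pub4, against 0.513, 0.471 and 0.528 TPM in wild type (log2 fold change 2.18, edgeR adjusted p = 0.00684). Sucrose synthase SUS1 had 30.1, 25 and 18.6 TPM in pub2pub4, against 16.3, 13 and 11.7 TPM in wild type. The groups of SUS1 did not overlap, and it did not pass (log2 fold change 0.85, edgeR adjusted p = 0.0619). RHM1, which makes the UDP-rhamnose that UGT89C1 uses, averaged 61.2 ± 3.62 TPM in pub2pub4 and 54.1 ± 1.39 TPM in wild type (SD, n = 3 each; log2 fold change 0.18, edgeR adjusted p = 0.139). UGP1, of the same function as UGP2, averaged 37.6 ± 3.36 TPM in pub2pub4 and 40.9 ± 1.59 TPM in wild type (SD, n = 3 each) and did not pass.

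Of the 10 AGI codes that the rule leaves out, UGT78D1 and UGT74C1 were called higher, with log2 fold changes of 0.42 and 0.47 (edgeR adjusted p = 0.0285 and 0.0331). UGT78D3 was not tested, and the other 7 did not pass. The share of all tested genes called higher was 2.49%.

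Marker genes of leaf and other cell types were read from the same fit. In bulk RNA, fewer cells of a type and less RNA per cell cannot be told apart. Of 26 markers 17 were tested, and edgeR called none. At an unadjusted p under 0.05 there were 0 higher and 4 lower, against 10.3% and 9.41% of all tested genes. DESeq2 called 0 higher and 2 lower, against 3.95% and 3.72% of all tested genes. Guard cell markers summed to 26.8 to 27.5 TPM in pub2pub4 and 28.5 to 33.7 TPM in wild type, phloem companion cell markers to 223 to 227 TPM in pub2pub4 and 229 to 261 TPM in wild type, and trichome markers to 6.36 to 9.16 TPM in pub2pub4 and 9.95 to 11.5 TPM in wild type. These 3 sums were lower in pub2pub4 without overlap, as were the values of 12.7% of all tested genes taken singly. Members of the guard cell and phloem lists did not all go 1 way. Among guard cell markers log2 fold changes were -0.46 for KAT1, -0.06 for HT1, -0.14 for MYB60 and 0.23 for SLAC1. Among phloem markers they were -0.11 for SUC2, -0.18 for AHA3 and 0.10 for APL. Both trichome markers had a negative log2 fold change, -0.42 for GL2 (edgeR adjusted p = 0.0964) and -0.84 for GL1 (edgeR adjusted p = 0.345). GL1 had only 4 to 22 counts per library. Epidermis markers summed to 468 to 526 TPM in pub2pub4 and 421 to 485 TPM in wild type, xylem markers to 12.3 to 15 TPM in pub2pub4 and 13.1 to 19.5 TPM in wild type, and flower markers to 0.232 to 0.861 TPM in pub2pub4 and 0.76 to 2.84 TPM in wild type. The part of these differences in the values of the UGT members was not tested.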

How the data were processed

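The authors deposited 1 combined table of expected counts (read numbers estimated per gene, not always whole) with a length per gene, for 6 libraries; 95.1% of its values were whole. The tools named per the submitters' processing notes are RSEM 2.1.30 and TopHat2 2.1.0, with build TAIR10. The sources used here give neither the strand setting nor the annotation release.

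Expected counts were rounded, filtered with filterByExpr (minimum count 10, minimum total 15), scaled by TMM and fitted with edgeR 4.0.16 (robust quasi-likelihood, R 4.3.3) over all 6 libraries with genotype as the term. DESeq2 1.42.0 was an alternative, beside other scalings, filters and libraries left out. SE is the fold change divided by the root of the F value. TPM was computed from the deposited counts and lengths. The test was run first on simulated data, drawn with no library set apart from the others of its group. No result above rests on that run.

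Libraries with the same number correlated in their deviations from the group means at 0.134, 0.058 and 0.156, and since 1 of these is under 0.1 the numbers were not taken as pairs.

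Named are the called members, the 10 highest by mean TPM, the member with the smallest p in each group and the members with a listed role; the UDP-sugar and marker lists were named beside them. UGT76E12 was singled out after its values were seen, as were the sequences and arrays shown, and untested or zero members are named where their count is given. Members and lists were chosen with earlier results of these data known. Positions and sequences come from the RefSeq TAIR10.1 genome and annotation, matched by AGI code for all 99 members; motif windows were built from it, since no promoter table was used here.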

Additional observations from a re-analysis of the deposited data

How the results depend on the processing

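All 9 called members kept a positive log2 fold change in every alternative run (117 values). DESeq2 called 1460 genes in all, 11 members higher and 3 lower; 8 of the 9 called members remained. With a replicate block, 1066 genes were called in all, with 8 members higher and 0 lower, and 7 of the 9 remained, UGT75B1 (adjusted p = 0.0706) and UGT89B1 (0.0555) being lost and UGT75D1 (0.00658) gained. Library totals alone gave 7 members called higher, and the same 2 were lost (0.0605 and 0.0515). Median-of-ratios size factors, no filter, a filter of 5 CPM in 3 libraries and no rounding each left 9 called. Leaving out 1 library at a time, calls over all genes ran between 86 and 1210, members higher between 1 and 12, members lower between 0 and 1, the median log2 fold change between 0.07 and 0.23, and the family's TPM ratio between 1.13 and 1.29. On summed CPM that ratio was 1.22, and without UGT75B1 it was 1.20.

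Leaving out the highest member of a group gave ratios of 0.77 (72), 0.84 (74), 0.99 (85), 1.06 (76), 1.33 (79), 1.18 (84), 0.80 (86) and 1.35 (89), and for group 90 left the untested UGT90A2. For groups 71, 73, 75, 80 and 87 no such ratio is given here. On 1 strand, the W-box core, as-1 core and ACGTG were in 26.3%, 17.2% and 20.2% of the members' windows, against 29.0%, 11.9% and 18.0% of all windows, and in 1, 3 and 2 of the 9 of called members; the W-box core was then below the share of all windows. Of 576 values of named genes, 508 kept direction and side of the threshold, 33 lost a call, 11 gained one and 24 changed sign. The sign changed for UGT74E2 with the replicate block (-0.06), and on library totals for UGT80B1 (-0.002), UGT73B2 (-0.005) and UGT92A1 (-0.01). With 1 library left out, the log2 fold change ran between -1.27 and 1.05 for UGT74E2, -0.09 and 0.05 for UGT71C5, -0.07 and 0.49 for UGT71C3, -0.02 and 0.05 for UGT80B1, -0.12 and 0.29 for UGT87A2, -0.09 and 0.87 for UGT73C5, -0.04 and 0.30 for UGT73B3, -0.14 and 0.21 for UGT73B2, -0.18 and 0.05 for UGT73B1, and -0.06 and 0.04 for UGT92A1; the cause was not tested. Called members had between 66 and 4324 counts per library. The 32 untested members, with at most 21, failed the low-count filter.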
